A study of Mus musculus with 10 samples.

Results

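The genes described here are the 56 mouse genes of the WNT pathway that encode ligands, frizzled and LRP receptors, R-spondins and their LGR receptors, secreted inhibitors, TCF and LEF factors, and beta-catenin with the AXIN and NKD proteins. They were chosen by symbol alone, and each symbol matched 1 of the 42465 gene models in the table. RNA was sequenced from explants of the neural tube, with its neural crest cells, cut from mouse embryos at embryonic day 9.5 and cultured for 4 days. The 5 WT and 5 Ednrb-/- libraries are labelled as biological replicates. Every culture of either genotype was given the ligand EDN3 at 20 nM and 10% serum. The Ednrb-/- explants are labelled as lacking the endothelin receptor type B, which binds that ligand. Neither the allele, the strain nor the number of embryos behind a library is stated in the labels. The p values therefore measure the spread between these libraries.

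WNT proteins are secreted, lipid-modified signals that bind a frizzled receptor together with LRP5 or LRP6. Binding stops the AXIN complex from destroying beta-catenin, which then enters the nucleus and switches on genes through TCF and LEF factors. R-spondins amplify the signal through LGR receptors, SFRP, DKK and WIF proteins block it outside the cell, and AXIN2 and the NKD proteins are induced by it and damp it. In the embryo, WNT1 and WNT3A come from the dorsal midline of the neural tube, and the pathway is known for expanding neural crest and steering it toward pigment cells.

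The explants were checked first against their labels. Reads per library, worked back from the FPKM values (fragments per kilobase of gene, scaled by the reads of the library), numbered between 13022266 and 19532570. Ednrb held 43.8 to 60.7 FPKM in WT libraries and 2.34 to 11.7 in those labelled Ednrb-/-. All 10 neural tube progenitor markers and all 10 neural crest markers listed were found in both genotypes, with sums of 189 to 308 FPKM in WT and 226 to 258 FPKM in Ednrb-/- for the first and 161 to 235 FPKM in WT and 109 to 149 FPKM in Ednrb-/- for the second. Smooth muscle markers are given by library because several WNT genes are set beside them further on. The summed FPKM of 11 smooth muscle markers was 1496, 363, 2729, 2303 and 1687 in WT replicates 1 to 5 and 283, 192, 73.8, 337 and 62.4 in Ednrb-/- replicates 1 to 5. WT replicate 2 thus stood apart from the other WT libraries and next to the highest Ednrb-/- library. Of the 10 smooth muscle markers tested all fell, as did 9 of 10 markers of fibroblast-like mesenchyme (1 rose), 6 of 7 of pigment cells, 6 of 10 of neural crest and 3 of 3 of epithelium, while 7 of 9 neuron markers rose. The shares over all genes tested were 13.0% lower and 6.53% higher. Sums ran from 117 to 649 FPKM in WT and 43.7 to 127 FPKM in Ednrb-/- for mesenchyme (12 genes), from 71.7 to 216 FPKM in WT and 11.1 to 20.7 FPKM in Ednrb-/- for pigment cells (10), from 21.7 to 66.6 FPKM in WT and 1.38 to 16.2 FPKM in Ednrb-/- for epithelium (7, with Krt14 and Trp63 at 0 in all Ednrb-/- libraries) and from 874 to 1166 FPKM in WT and 1405 to 1630.2 FPKM in Ednrb-/- for neurons (9). The 10 tailbud markers reached their highest sum, 53.5 FPKM, in WT replicate 2, with Cdx1 at 0 in all 10 libraries, and ran from 0.475 to 8.82 FPKM in Ednrb-/-. The 6 endothelial markers ran from 1.06 to 9.98 FPKM in WT and 0.416 to 1.42 FPKM in Ednrb-/-, and the 1 tested, Kdr, fell by 1.79 on the log2 scale (limma, adjusted p = 0.0180). The 6 macrophage markers summed to at most 2.49 FPKM in any library. The part of these cell types in the WNT results was not tested, and in bulk samples fewer cells of a type and less RNA per cell cannot be told apart.

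Of the 56 WNT genes, 42 were tested because 5 or more of the 10 libraries reached 0.5 FPKM, and 14 lay below that filter. By limma on log2(FPKM + 0.5), with Benjamini-Hochberg adjustment over all 15156 genes tested and a threshold of 0.05, 21 of the 42 fell in Ednrb-/- explants and none rose. Over all genes tested 13.0% fell and 6.53% rose, or 1966 and 990 genes, a split that was 1730 and 1603 under quantile normalization. The lower genes were spread over every class: 5 of 11 tested ligands, 6 of 11 frizzled and LRP receptors, 2 of 4 R-spondins and LGR receptors, 3 of 7 secreted inhibitors, 3 of 4 TCF and LEF factors and 2 of 5 in the group of beta-catenin, AXIN and NKD. Fold changes are given as log2 differences, Ednrb-/- minus WT, after 0.5 FPKM was added, which makes those of low genes too small. Of the 21, 14 fell at least 2-fold on that scale. The share of all fallen genes that did so is not given here, so the 14 are a description only. The median log2 fold change of the 42 was -0.63, against 0.0048 over all genes tested. Of the 42, Dkk1 passed the filter through its WT libraries alone, so the count of 21 includes a gene that had to differ. Without any filter, the median over all 56 was -0.39, against -0.024 over 28144 genes, and 18 of the 56 fell, where 6.69% of all genes did. For 10 of the 42 all Ednrb-/- libraries lay below all WT libraries, and for none above, where the shares over all genes tested were 8.44% and 4.78%. Dkk1, 1 of these 10, had to separate by way of the filter. The 12 genes Wnt9a, Wnt11, Fzd6, Fzd7, Lrp5, Rspo3, Dkk1, Dkk2, Dkk3, Lef1, Tcf7 and Nkd2 passed under all 20 alternative settings, except that Lef1 was not tested with the filter at 1 FPKM. The other 9 are described below with the omitted libraries and other settings that ended the call, each followed in parentheses by the adjusted p of limma there. Fits with the replicate number as a block, under which all 9 also missed the threshold, are given with the alternatives.

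**Figure D1:**
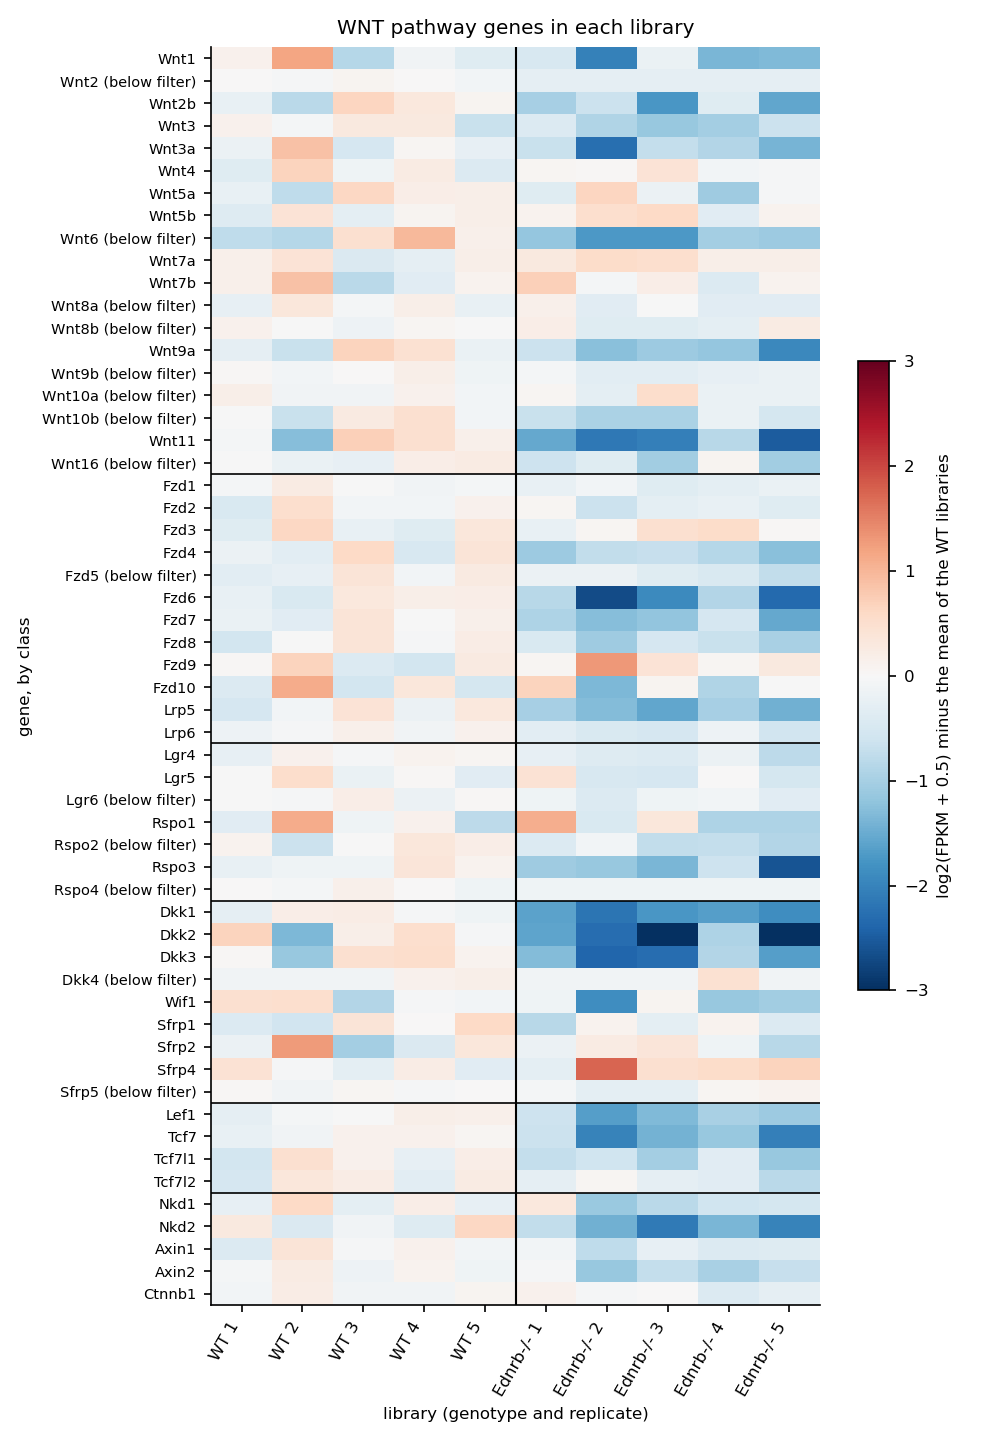
Level of the 56 WNT genes in each of the 10 libraries, as log2(FPKM + 0.5) minus the mean of the 5 WT libraries (colour, cut at -3 and 3), with genes in rows by class and libraries in columns. Blue fills the Ednrb-/- columns of Dkk1, Dkk2, Dkk3, Tcf7 and Lef1, while WT replicate 2 differs from the other WT libraries in both directions.

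**Figure D2:**
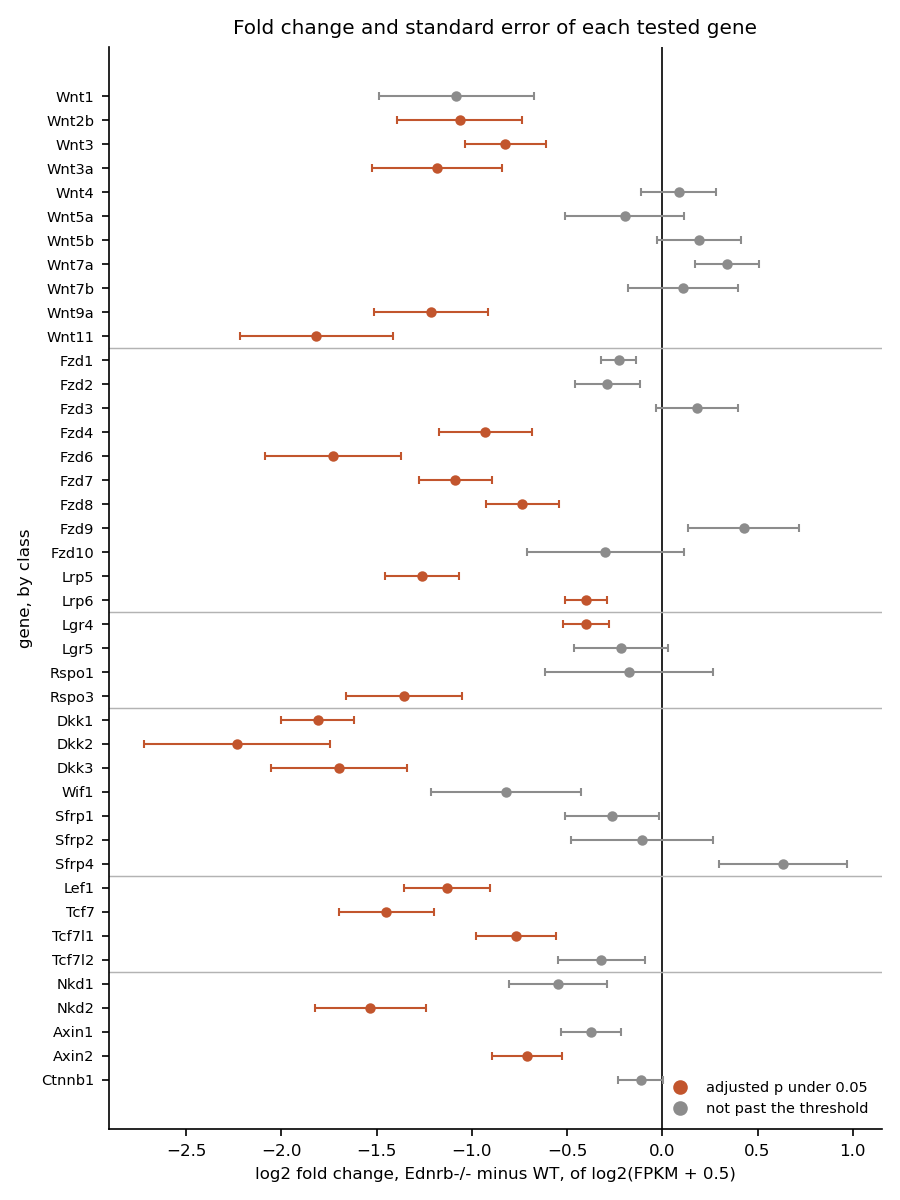
Log2 fold change, Ednrb-/- minus WT, of the 42 tested WNT genes on the log2(FPKM + 0.5) scale, by class, with bars of 1 standard error (n = 5 libraries per genotype). The 21 genes past an adjusted p of 0.05 are all left of 0, from -0.40 to -2.23.

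Promoters are shown for a pair of members whose promoters held a TCF and LEF motif and for Axin2, the usual readout of the pathway. RefSeq promoters (build GRCm38.p6, 250 bases before to 50 after the start of the transcript) were matched by symbol for 38 of the 56 genes, 47 promoters in all. The letters CTTTGAA and CTTTGAT, which hold the core that TCF and LEF proteins bind, were searched on both strands. Runs with other letters after CTTTG, such as the CTTTGTT in the Dkk1 promoter, were not searched, counted or marked. Matches on the same strand cannot overlap, while matches on opposite strands can share their end bases. A match was found in a promoter of 3 of the 38 genes, or 7.89%, against 9.88% of all 27025 symbols and 8.65% of all 32851 promoters. Of the 15 genes that fell and had a promoter, Dkk1 and Wnt11 had a match. The third gene, Wnt5b, did not pass the test. Each run is printed on the strand of its gene, and capitals mark the match, which begins 117 bases before the start of Dkk1 on the coding strand and 51 bases before the start of Wnt11 on the other strand. The promoter of Axin2 holds neither set of letters in this window. The Dkk1 promoter lies at chr19:30549447-30549746 on the minus strand, the printed promoter of Wnt11 at chr7:98834862-98835161 on the plus strand and that of Axin2 at chr11:108920099-108920398 on the plus strand. Another promoter of Wnt11, at chr7:98838595-98838894 on the plus strand, held no match and is not printed. A match is a description of the letters and not a site of binding.
Dkk1: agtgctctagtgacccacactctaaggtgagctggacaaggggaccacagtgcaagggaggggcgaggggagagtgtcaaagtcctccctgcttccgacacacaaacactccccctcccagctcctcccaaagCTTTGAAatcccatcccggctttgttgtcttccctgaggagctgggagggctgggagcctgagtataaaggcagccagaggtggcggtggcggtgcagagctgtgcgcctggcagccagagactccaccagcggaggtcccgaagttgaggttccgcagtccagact
Wnt11: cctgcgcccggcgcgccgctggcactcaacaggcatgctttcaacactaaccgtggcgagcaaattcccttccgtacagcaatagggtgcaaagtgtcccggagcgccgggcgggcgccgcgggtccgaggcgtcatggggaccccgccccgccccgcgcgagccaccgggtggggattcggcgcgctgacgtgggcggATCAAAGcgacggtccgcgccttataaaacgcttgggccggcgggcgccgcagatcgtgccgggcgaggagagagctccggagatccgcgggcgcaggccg
Axin2: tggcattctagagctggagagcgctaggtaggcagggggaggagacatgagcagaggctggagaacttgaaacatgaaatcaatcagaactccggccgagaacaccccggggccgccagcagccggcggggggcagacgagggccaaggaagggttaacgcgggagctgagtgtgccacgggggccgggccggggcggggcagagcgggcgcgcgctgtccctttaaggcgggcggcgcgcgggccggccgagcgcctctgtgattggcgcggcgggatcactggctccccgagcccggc

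Among the ligands, the most abundant ones did not pass the test and less abundant ones fell. Wnt7b, Wnt4 and Wnt5a together made up 54.4% ± 2.29 of the summed ligand FPKM in WT and 68.4% ± 4.88 in Ednrb-/- libraries (SD, n = 5 each). None of the 3 passed, at log2 fold changes of 0.11, 0.085 and -0.20 (standard errors 0.29, 0.20 and 0.31; limma, adjusted p = 0.829, 0.804 and 0.705), and each changed sign when a single library was left out. Wnt7b and Wnt4 are ligands of the neural tube, and Wnt5a acts mostly outside the beta-catenin branch. In WT libraries Wnt7b held 15.5 ± 7.09, Wnt4 13.8 ± 4.84 and Wnt5a 11.3 ± 3.99 FPKM (SD, n = 5), levels that do not differ from their neighbours beyond that spread. Wnt7a, another neural tube ligand, held 4.93 ± 1.26 FPKM in WT libraries and 6.27 ± 0.858 FPKM in Ednrb-/-, and Wnt5b 1.68 ± 0.486 and 2.00 ± 0.618 FPKM (SD, n = 5 each). Neither passed (limma, adjusted p = 0.183 and 0.588). The model of Wnt5b overlaps that of Fbxl14, on the other strand, for 2882 bases. Strand use in counting is unknown here.

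Wnt11, a ligand known for cell movements rather than beta-catenin signalling, had the largest fall among the tested ligands. It stood at 2.47, 0.765, 4.53, 3.79 and 2.90 FPKM in WT replicates 1 to 5 and at 0.556, 0.190, 0.241, 1.22 and 0.0486 FPKM in Ednrb-/- replicates 1 to 5. The Ednrb-/- libraries lay below 4 of the WT libraries, while WT replicate 2 lay inside their range. The log2 fold change was -1.82 (standard error 0.40; limma, adjusted p = 0.00991), and -3.06 by voom on the reads worked back. Reads numbered 43 to 259 in WT and 3 to 72 in Ednrb-/- libraries.

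Wnt9a, a ligand known from joint formation, fell as well. Its FPKM was 2.22, 1.57, 4.76, 4.00 and 2.36 in WT replicates 1 to 5 and 1.61, 0.876, 1.05, 0.978 and 0.353 in Ednrb-/- replicates 1 to 5. Again the overlap came from WT replicate 2, which lay just under Ednrb-/- replicate 1 (log2 fold change -1.21, standard error 0.30; limma, adjusted p = 0.0160). Wnt2b, which is known from the eye and the lateral mesoderm, held 2.05, 1.2, 4.16, 3.26 and 2.68 FPKM in the WT and 0.998, 1.43, 0.390, 1.81 and 0.518 FPKM in the Ednrb-/- libraries, in the order of their numbers. WT replicate 2 lay inside the Ednrb-/- range. Its log2 fold change was -1.06 (standard error 0.33; limma, adjusted p = 0.0423), and the call was lost with no filter (0.0917), under quantile normalization (0.0527), without Ednrb-/- replicate 1 (0.0636), 3 (0.0952) or 5 (0.0994) or WT replicate 1 (0.0543), 3 (0.107), 4 (0.10) or 5 (0.0913).

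Wnt3a and Wnt1, the ligands of the dorsal midline, had their highest level in WT replicate 2. Wnt3a levels were 2.94, 6.62, 2.21, 3.52 and 2.76 FPKM in WT replicates 1 to 5 and 1.94, 0.306, 1.88, 1.6 and 0.980 FPKM in Ednrb-/- replicates 1 to 5. All Ednrb-/- libraries lay below all WT libraries. Wnt3a fell by 1.18 on the log2 scale (standard error 0.34; limma, adjusted p = 0.0325), a call lost with no filter (0.0704), without Ednrb-/- replicate 5 (0.0718) or WT replicate 2 (0.0567), 4 (0.0703) or 5 (0.0554). It rested on 96 to 283 reads per library in WT and 11 to 106 in Ednrb-/-. Wnt1 did not pass. It had 7.96, 17.0, 3.80, 6.74 and 5.48 FPKM in WT replicates 1 to 5 and 5.03, 1.39, 6.20, 2.48 and 2.60 FPKM in Ednrb-/- replicates 1 to 5. The groups overlapped, with 3 of the 5 Ednrb-/- libraries below the lowest WT library (log2 fold change -1.08, standard error 0.41; limma, adjusted p = 0.0851). Beside these values, the roof plate and dorsal tube markers summed to 152, 174, 137, 183 and 113 FPKM in WT replicates 1 to 5 and to 152, 69.1, 90.7, 68.1 and 108 FPKM in Ednrb-/- replicates 1 to 5. Of the 11 markers 5 fell and none rose, against 13.0% and 6.53% of all genes tested. The part of these markers in the Wnt3a result was not tested.

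Wnt3, a ligand close in sequence to Wnt3a, fell too. Its levels were 4.20, 3.60, 4.8, 4.79 and 2.21 FPKM in WT replicates 1 to 5 and 2.73, 1.79, 1.45, 1.63 and 2.24 FPKM in Ednrb-/- replicates 1 to 5. WT replicate 5 lay among the Ednrb-/- libraries and the other WT libraries above all of them. The log2 fold change was -0.82 (standard error 0.21; limma, adjusted p = 0.0202), and the call was lost without Ednrb-/- replicate 3 (0.0505) or WT replicate 3 (0.0566) or 4 (0.0578).

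Below the filter lay 8 ligand genes, namely Wnt2, Wnt6, Wnt8a, Wnt8b, Wnt9b, Wnt10a, Wnt10b and Wnt16, all at no more than 2.73 FPKM in any library. Wnt6 is the one that reached 1 FPKM anywhere. It held 0.471, 0.413, 1.80, 2.73 and 1.32 FPKM in WT replicates 1 to 5 and 0.230, 0, 0, 0.308 and 0.268 FPKM in Ednrb-/- replicates 1 to 5, so that the groups did not overlap. With no filter its log2 fold change was -1.34 (limma, adjusted p = 0.0456). Wnt2 was at 0 in all Ednrb-/- libraries and rested on 2 to 5 reads in each WT library, a difference that also passed with no filter (limma, adjusted p = 0.00996) but lies at the limit of counting. The other 6 did not pass. Several ligand genes are neighbours in the deposited coordinates, which belong to the C57BL/6NJ assembly. Wnt3a and Wnt9a lie 17591 bases apart on chromosome 11, and both fell. Wnt6 lies 8220 bases from Wnt10a on chromosome 1, Wnt9b 25809 bases from Wnt3 on chromosome 11, and Wnt10b 23054 bases from Wnt1 on chromosome 15. In each of those pairs 1 or both genes lay below the filter.

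Of the 9 tested frizzled genes 4 fell. Fzd10, Fzd3 and Fzd2, the most abundant frizzled genes beside Fzd7 in WT explants, did not pass the test. Fzd10, a dorsal neural tube receptor, ran from 19.8 to 64.0 FPKM in WT libraries and from 11.2 to 46.4 FPKM in Ednrb-/-. Fzd3, known from axon growth and planar polarity, ran from 17.2 to 34.4 and from 19.1 to 32.8 FPKM, and Fzd2 from 16.0 to 31.2 and from 14.0 to 23.0 FPKM. On the log2 scale they differed by -0.30, 0.18 and -0.29 (standard errors 0.41, 0.22 and 0.17; limma, adjusted p = 0.661, 0.600 and 0.270). Fzd1, at 11.9 ± 1.25 and 10.1 ± 0.789 FPKM, and Fzd9, at 2.42 ± 1.03 and 3.45 ± 1.68 FPKM (SD, n = 5 each), did not pass either, at log2 fold changes of -0.23 and 0.43 (limma, adjusted p = 0.109 and 0.339). Fzd5 lay below the filter.

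Fzd7 and Fzd6 fell. Fzd7 (MGP_C57BL6NJ_G0016457, chromosome 1 from 61792437 to 61796968 on the plus strand), a receptor of stem and progenitor cells, held 19.8, 17.7, 29.5, 22.6 and 25.4 FPKM in WT replicates 1 to 5 and 11.7, 8.96, 9.68, 15.7 and 7.50 FPKM in Ednrb-/- replicates 1 to 5. The groups did not overlap. Ednrb-/- differed from WT by -1.09 on the log2 scale (standard error 0.19; limma, adjusted p = 0.00420). In WT libraries the means of Fzd3, Fzd7 and Fzd2 were 23.3 ± 7.72, 23.0 ± 4.66 and 22.5 ± 5.65 FPKM (SD, n = 5), within each other's spread. In Ednrb-/- libraries Fzd7 held 10.7 ± 3.18 FPKM, within the spread of Fzd1 at 10.1 ± 0.789 FPKM. Fzd6, which orders hair follicles and acts in planar polarity, had 2.94, 2.45, 4.48, 4.07 and 4.10 FPKM in the WT and 1.75, 0.130, 0.568, 1.69 and 0.299 FPKM in the Ednrb-/- libraries, by replicate number. These groups did not overlap either (log2 fold change -1.73, standard error 0.36; limma, adjusted p = 0.00767).

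The calls of Fzd8 and Fzd4 depended on single libraries. Fzd8 is a receptor of neural progenitors, and its levels were 2.99, 4.54, 6.12, 4.44 and 5.42 FPKM in WT replicates 1 to 5 and 3.19, 1.93, 3.10, 2.68 and 2.11 FPKM in Ednrb-/- replicates 1 to 5. The lowest WT library lay below a pair of the Ednrb-/- libraries. It fell by 0.73 on the log2 scale (limma, adjusted p = 0.0210), a call lost without Ednrb-/- replicate 5 (0.0537) or WT replicate 3 (0.0574) or 5 (0.0596). Fzd4 is the receptor of the blood vessel signal Norrin. Beside it, the 1 endothelial marker tested, Kdr, fell, and the endothelial sums overlapped only through WT replicate 2. Kdr is itself part of those sums, at 9.51 of 9.98 FPKM in WT replicate 3 and 0.582 of 1.19 FPKM in Ednrb-/- replicate 1. The part of these markers in the Fzd4 result was not tested. Fzd4 held 1.30, 1.12, 2.57, 0.946 and 2.15 FPKM in the WT and 0.452, 0.708, 0.756, 0.617 and 0.351 FPKM in the Ednrb-/- libraries, with no overlap. Fzd4 fell by 0.93 on the log2 scale (limma, adjusted p = 0.0209), and the call was lost with no filter (0.0501), under quantile normalization (0.0504), without Ednrb-/- replicate 5 (0.0531) or WT replicate 3 (0.0563) or 5 (0.0628).

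Both co-receptors of the beta-catenin branch fell, Lrp5 by more than Lrp6. Lrp5 (MGP_C57BL6NJ_G0025040, chromosome 19 from 339330 to 458617 on the minus strand) held 4.18, 5.78, 8.29, 5.37 and 7.78 FPKM in WT replicates 1 to 5 and 2.82, 2.17, 1.73, 2.79 and 1.92 FPKM in Ednrb-/- replicates 1 to 5. Every WT library exceeded every Ednrb-/- library. Mean levels were 6.28 ± 1.72 in WT and 2.29 ± 0.499 FPKM in Ednrb-/- (SD, n = 5 each), and the log2 difference was -1.26 (standard error 0.19; limma, adjusted p = 0.00310). Lrp6 had 8.99, 9.88, 11.3, 9.33 and 11.1 FPKM in the WT and 7.94, 7.17, 6.98, 9.06 and 6.64 FPKM in the Ednrb-/- libraries, by replicate number. Its lowest WT library lay just under Ednrb-/- replicate 4. The log2 fold change of Lrp6 was -0.40 (standard error 0.11; limma, adjusted p = 0.0245), and the call was lost without Ednrb-/- replicate 3 (0.0600) or 5 (0.0642) or WT replicate 3 (0.0662) or 5 (0.0707). Per length, Lrp6 was the more abundant of the pair in every library.

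**Figure D3:**
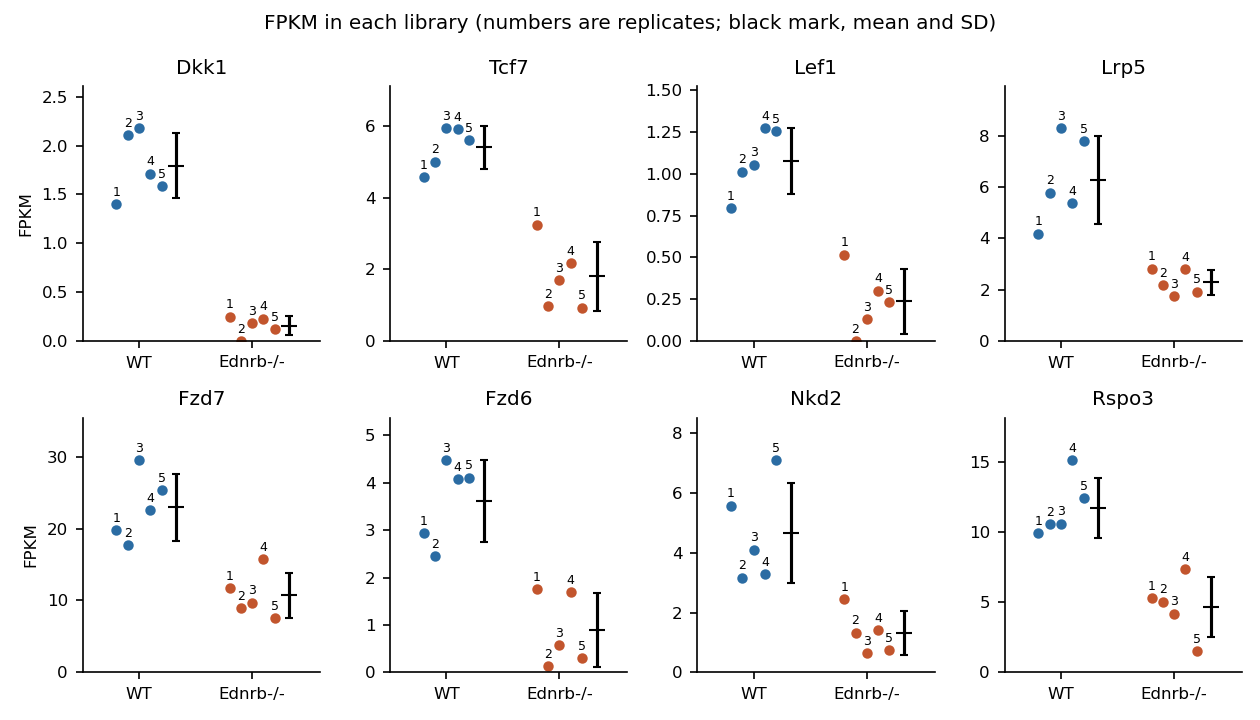
FPKM of 8 WNT genes whose call held under every alternative setting in which they were tested, by genotype, with 1 numbered point per library and the mean and SD (n = 5) in black. In each panel all WT libraries lie above all Ednrb-/- libraries, and Dkk1 stays at or under 0.25 FPKM in Ednrb-/-. Only genes without overlap are shown. Wnt9a, Wnt11, Dkk2 and Dkk3 also held their call but overlapped through WT replicate 2. Over all genes tested 8.44% separated in this direction. Dkk1 passed the filter through its WT libraries alone, so its groups had to lie apart.

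Of the R-spondins, Rspo3 fell and Rspo1 did not pass. Rspo3, the main R-spondin by level here, held 9.91, 10.6, 10.6, 15.1 and 12.4 FPKM in WT replicates 1 to 5 and 5.30, 5.03, 4.20, 7.37 and 1.5 FPKM in Ednrb-/- replicates 1 to 5. The groups did not overlap, and Ednrb-/- replicate 5 was the lowest library. Its log2 fold change was -1.35 (standard error 0.30; limma, adjusted p = 0.0105). Rspo1 ran from 0.650 to 3.80 FPKM in WT libraries and from 0.539 to 3.70 FPKM in Ednrb-/-, with its highest values in WT replicate 2 and Ednrb-/- replicate 1 (log2 fold change -0.18; limma, adjusted p = 0.820). Rspo2 and Rspo4 lay below the filter, and Rspo4 was at 0 in all Ednrb-/- libraries.

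Among the receptors for R-spondins, Lgr4 was the abundant one and fell slightly. It held 20.2, 26.3, 23.5, 25.8 and 25.3 FPKM in the WT and 20.3, 18.3, 17.9, 21.4 and 13.8 FPKM in the Ednrb-/- libraries, by replicate number. WT replicate 1 lay among the Ednrb-/- libraries. On the log2 scale the difference was -0.40 (standard error 0.12; limma, adjusted p = 0.0392), a call lost with no filter (0.0645), with no trend in the prior variance (0.0580), with every library scaled to the same sum (0.0579), without Ednrb-/- replicate 2 (0.0670), 3 (0.0790) or 5 (0.0738) or WT replicate 2 (0.0683), 3 (0.0728), 4 (0.0926) or 5 (0.0922). Lgr5, a marker of WNT-driven stem cells in other organs, held 1.21 ± 0.430 and 0.988 ± 0.476 FPKM (SD, n = 5 each) and did not pass (limma, adjusted p = 0.584). Lgr6 lay below the filter.

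Among the secreted inhibitors only DKK genes were called. The 3 tested DKK genes fell, while none of Sfrp1, Sfrp2, Sfrp4 and Wif1 passed. A gene that did not pass is not shown to be unchanged. The log2 fold change of Wif1 was -0.82 (standard error 0.39), like that of Wnt3, which was called at -0.82 (standard error 0.21). Dkk1, Dkk2 and Dkk3 together made up 33.4% ± 12.2 of the summed FPKM of the class in WT and 12.6% ± 6.72 in Ednrb-/- libraries (SD, n = 5 each). These shares overlapped, at 15.2% to 43.5% in WT and 5.93% to 19.5% in Ednrb-/- libraries. Dkk1 had to differ by way of the filter, and Dkk2 and Dkk3 overlapped between genotypes through WT replicate 2. DKK1 blocks the pathway by binding LRP5 and LRP6, DKK2 is a weaker ligand of the same receptors, and DKK3 is a divergent member of the family.

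Dkk1 (MGP_C57BL6NJ_G0025451, chromosome 19 from 29879704 to 29883506 on the minus strand) had the lowest adjusted p of all 42. It stood at 1.40, 2.10, 2.17, 1.71 and 1.59 FPKM in WT replicates 1 to 5 and at 0.250, 0, 0.180, 0.228 and 0.121 FPKM in Ednrb-/- replicates 1 to 5. All Ednrb-/- libraries lay far under the WT range. Dkk1 passed the filter through its WT libraries alone, so its groups had to lie apart. In Ednrb-/- replicate 2 no read was found, where 3 reads would give 0.0949 FPKM. Ednrb-/- differed from WT by -1.81 on the log2 scale (standard error 0.19; limma, adjusted p = 0.00238). At such low values its size depended on the scale, at -3.0 with a pseudocount of 0.1 and -3.76 by voom on reads. Those reads numbered 52 to 83 in WT and 0 to 12 in Ednrb-/- libraries. The promoter of Dkk1 is 1 of the pair printed above with a TCF and LEF motif.

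Dkk2 had the largest log2 fold change of the 42 on the log2(FPKM + 0.5) scale. In means, WT was 5.34-fold above Ednrb-/- for Dkk2, 6.41-fold for Wnt11 and 11.5-fold for Dkk1. Its levels were 12.5, 2.72, 8.73, 11.1 and 7.51 FPKM in WT replicates 1 to 5 and 2.21, 1.18, 0.353, 3.78 and 0.444 FPKM in Ednrb-/- replicates 1 to 5. The overlap was between WT replicate 2 and Ednrb-/- replicate 4. Its log2 fold change was -2.23 (standard error 0.49; limma, adjusted p = 0.00954). Dkk3 held 13.1, 5.56, 18.0, 18.8 and 13.7 FPKM in the WT and 4.88, 2.08, 2.24, 6.77 and 3.73 FPKM in the Ednrb-/- libraries, by replicate number. The same 2 libraries overlapped, and the log2 fold change was -1.70 (standard error 0.36; limma, adjusted p = 0.00808). Dkk4 lay below the filter.

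Sfrp1 and Sfrp2, decoys that bind WNT proteins, were the inhibitors with the highest means in either genotype, although Sfrp2 lay below Dkk3 in WT replicates 3 and 4. Sfrp1 ran from 18.4 to 42.3 FPKM in WT libraries and from 15.4 to 29.9 FPKM in Ednrb-/- (log2 fold change -0.27, standard error 0.25; limma, adjusted p = 0.495). Sfrp2 ran from 7.12 to 36.9 and from 8.22 to 19.2 FPKM, with its highest value in WT replicate 2 (log2 fold change -0.11; limma, adjusted p = 0.875). Sfrp4 and Wif1, which binds WNT proteins through a domain of its own kind, ran from 0.380 to 1.00 and from 0.498 to 2.08 FPKM in WT and from 0.403 to 3.23 and from 0 to 1.42 FPKM in Ednrb-/-, and did not pass at log2 fold changes of 0.63 and -0.82 (limma, adjusted p = 0.217 and 0.171). Sfrp5 lay below the filter. Frzb, a further SFRP relative outside the 56, did not pass at -0.47 (limma, adjusted p = 0.194).

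Among the nuclear partners of beta-catenin, Tcf7 and Lef1 fell without overlap. Both are commonly activators, and both are themselves induced by the pathway in many tissues. Tcf7 (MGP_C57BL6NJ_G0018675, chromosome 11 from 53124289 to 53155703 on the minus strand) held 4.57, 5.00, 5.93, 5.91 and 5.61 FPKM in WT replicates 1 to 5 and 3.24, 0.968, 1.70, 2.17 and 0.927 FPKM in Ednrb-/- replicates 1 to 5. On the log2 scale the difference was -1.45 (standard error 0.25; limma, adjusted p = 0.00408). The highest Ednrb-/- library was replicate 1, and WT replicate 2 lay well inside the WT range.

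Lef1 (MGP_C57BL6NJ_G0028299, chromosome 3 from 138610345 to 138738392 on the plus strand) was the least abundant of the 4 factors in the mean of either genotype. Its levels were 0.793, 1.01, 1.06, 1.27 and 1.26 FPKM in WT replicates 1 to 5 and 0.517, 0, 0.130, 0.300 and 0.234 FPKM in Ednrb-/- replicates 1 to 5. No read was found in Ednrb-/- replicate 2, where 3 reads would give 0.0262 FPKM, and replicate 1 was again the highest of its group. Reads numbered 115 to 183 in WT and 0 to 90 in Ednrb-/- libraries. Ednrb-/- differed from WT by -1.13 on the log2 scale (standard error 0.23; limma, adjusted p = 0.00655). It was -2.03 with a pseudocount of 0.1 and -2.96 by voom.

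Tcf7l1, which mostly represses in the absence of signal, was the most abundant of the 4 in the mean of either genotype. It held 4.95, 10.6, 8.22, 6.23 and 8.70 FPKM in the WT and 4.35, 4.77, 3.42, 5.78 and 3.12 FPKM in the Ednrb-/- libraries, by replicate number. WT replicate 1 lay below Ednrb-/- replicate 4. Tcf7l1 fell by 0.77 on the log2 scale (standard error 0.21; limma, adjusted p = 0.0258), and the call was lost with no filter (0.0508), without Ednrb-/- replicate 3 (0.0634) or 5 (0.0640) or WT replicate 3 (0.0633) or 5 (0.0686). Tcf7l2 held 1.43 ± 0.478 and 1.03 ± 0.312 FPKM (SD, n = 5 each) and did not pass (log2 fold change -0.32; limma, adjusted p = 0.359).

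Beta-catenin itself did not pass. Ctnnb1, which also serves cell adhesion, was the most abundant of the 56 genes, at 222, 274, 218, 220.0 and 249 FPKM in WT replicates 1 to 5 and 256, 231, 238, 177 and 196 FPKM in Ednrb-/- replicates 1 to 5. The groups overlapped over most of their range. Its log2 fold change was -0.11 (standard error 0.12; limma, adjusted p = 0.55). Axin1, the constitutive scaffold of the destruction complex, held 20.6 ± 4.18 and 15.7 ± 2.71 FPKM (SD, n = 5 each) and did not pass either (log2 fold change -0.37; limma, adjusted p = 0.118), though it passed without WT replicate 1 (0.0455).

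Axin2, the scaffold that the pathway induces, fell. It stood at 11.9, 14.8, 11.2, 13.4 and 11.4 FPKM in WT replicates 1 to 5 and at 12.1, 5.41, 7.36, 6.13 and 7.54 FPKM in Ednrb-/- replicates 1 to 5. Ednrb-/- replicate 1 lay inside the WT range and the other 4 below it. On the log2 scale the difference was -0.71 (standard error 0.18; limma, adjusted p = 0.0194), and the call was lost without WT replicate 4 (0.0510). Without Ednrb-/- replicate 1 the log2 fold change was -0.88 (limma, adjusted p = 0.00347). The promoter of Axin2 printed above holds no copy of the motif searched.

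Of the NKD genes, whose products bind Dishevelled and damp the pathway, Nkd2 fell and Nkd1 did not pass. Nkd2 held 5.57, 3.17, 4.10, 3.28 and 7.10 FPKM in the WT and 2.46, 1.33, 0.635, 1.42 and 0.734 FPKM in the Ednrb-/- libraries, by replicate number, with no overlap (log2 fold change -1.53, standard error 0.29; limma, adjusted p = 0.00544). Nkd1 had 20.0, 36.2, 19.4, 27.4 and 19.8 FPKM in WT replicates 1 to 5 and 29.9, 10.7, 13.3, 15.4 and 16.4 FPKM in Ednrb-/- replicates 1 to 5. As for Axin2, Ednrb-/- replicate 1 lay inside the WT range and the other 4 below it. The log2 fold change of Nkd1 was -0.55 (standard error 0.26; limma, adjusted p = 0.161), and -0.77 without Ednrb-/- replicate 1 (limma, adjusted p = 0.0250).

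Single libraries stood at the ends of the range for many of these genes. WT replicate 2 was the highest WT library for 22 of the 42 tested genes (52.4%, against 28.2% of all genes tested) and the lowest for 10 (23.8%, against 29.6%). The 22 include Wnt1, Wnt3a, Wnt4, Wnt7a, Wnt7b, Fzd10, Rspo1, Sfrp2, Nkd1 and Axin2, and the 10 include Wnt11, Wnt9a, Wnt2b, Wnt5a, Dkk2, Dkk3 and Sfrp1. Ednrb-/- replicate 1 was the highest of its group for 19 of the 42 genes (45.2%, against 18.1% of all genes tested), among them Axin2, Nkd1, Nkd2, Lef1, Tcf7, Dkk1, Wnt3a and Fzd10. These shares are a description, since genes of 1 library are not independent. The roof plate and dorsal tube markers were also highest of their group in Ednrb-/- replicate 1, at 152 FPKM, but in WT replicate 4 rather than 2 among WT libraries.

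**Figure D4:**
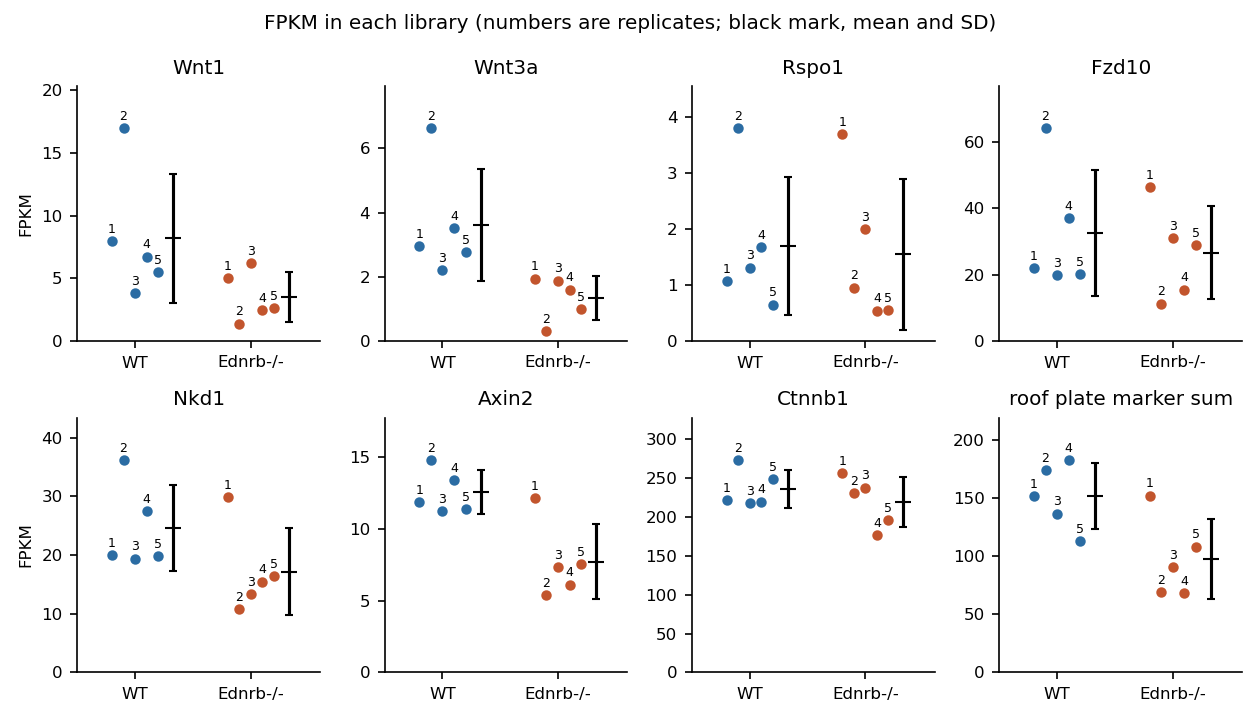
FPKM of 7 WNT genes and the summed FPKM of 11 roof plate and dorsal tube markers, by genotype, with 1 numbered point per library and the mean and SD (n = 5) in black. WT replicate 2 is the highest WT library in all 7 gene panels, and Ednrb-/- replicate 1 lies in the WT range for Nkd1 and Axin2.

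WT replicate 2, a single library, had a smooth muscle sum close to the highest of the Ednrb-/- libraries, 363 FPKM against 337 FPKM in Ednrb-/- replicate 4. Its mesenchyme sum of 117 FPKM and endothelial sum of 1.06 FPKM lay inside the Ednrb-/- ranges (43.7 to 127 and 0.416 to 1.42 FPKM). The mesenchyme sums include Dcn, the 1 marker of that list that rose. Dcn held 9.49 FPKM in WT replicate 2 and 24.1, 74.0, 81.4, 7.16 and 34.3 FPKM in Ednrb-/- replicates 1 to 5. The mesenchyme range therefore does not stand for the markers that fell alone. In contrast, the pigment cell sum of WT replicate 2, 124 FPKM, and its neural crest sum, 219 FPKM, lay above the Ednrb-/- ranges (11.1 to 20.7 and 109 to 149 FPKM). The values that follow are a description, since the genes were called with this library included. In WT replicate 2, 16 of the 21 fallen genes (76.2%) lay above every Ednrb-/- library, as did 71.7% of all 1966 fallen genes. Dkk1, 1 of the 16, had to by way of the filter. Lef1 held 1.01 FPKM there against at most 0.517 FPKM in Ednrb-/-, Tcf7 5.00 against at most 3.24 and Lrp5 5.78 against at most 2.82. Fzd6, Fzd7 and Nkd2, also of the 16, were lowest of all WT libraries in WT replicate 2. They held 2.45, 17.7 and 3.17 FPKM there against at most 1.75, 15.7 and 2.46 FPKM in Ednrb-/-. The other 5, Dkk2, Dkk3, Wnt11, Wnt9a and Wnt2b, lay within the Ednrb-/- range in WT replicate 2. In the remaining WT libraries, whose smooth muscle sums were between 1496 and 2729 FPKM, those 5 genes were above all Ednrb-/- libraries. Without WT replicate 2 the log2 fold changes of Dkk2, Dkk3 and Wnt11 were -2.57, -1.98 and -2.14, and those of Dkk1, Lef1 and Tcf7 -1.76, -1.14 and -1.47. All 10 smooth muscle markers tested fell. Their part in the results for the 21 genes was not tested, nor was that of the pigment cell, neural crest and other markers.

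**Figure D5:**
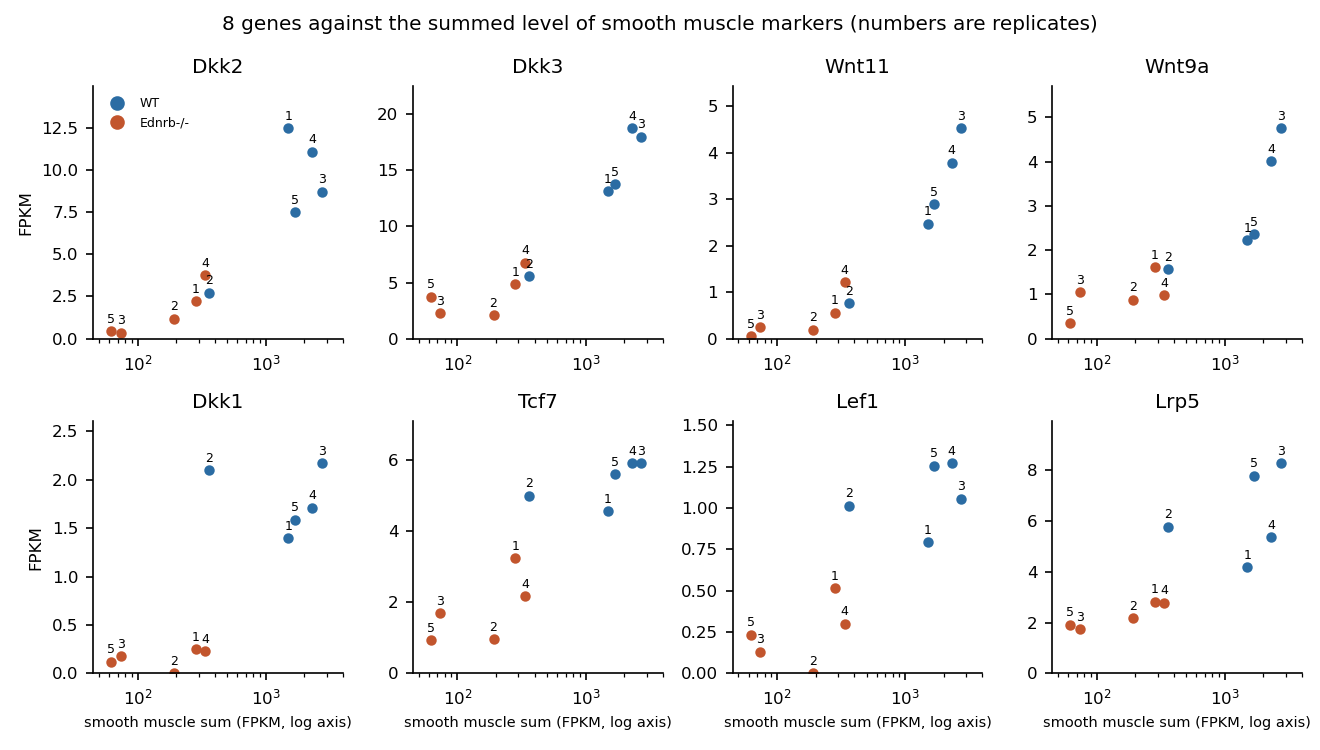
FPKM of 8 fallen WNT genes (vertical, linear axis) against the summed FPKM of 11 smooth muscle markers (horizontal, log axis), with 1 numbered point per library. In the upper row WT replicate 2, at 363 FPKM of the markers, sits among the Ednrb-/- libraries. In the lower row its level of the WNT gene lies with those of the other WT libraries. Dkk1, in the lower row, had to separate by way of the filter. The pigment cell and neural crest sums of WT replicate 2, not shown, also lay above every Ednrb-/- library. Fzd6, Fzd7 and Nkd2, for which WT replicate 2 was the lowest WT library, are not shown.

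Other genes of the pathway were taken from 4 lists of 99 symbols, of which 97 were in the table and 85 were tested. Of these 21 fell and 3 rose, with a median log2 fold change of -0.081. Over all genes tested 13.0% fell and 6.53% rose, the shares to set beside each of these lists. Of 32 genes of the cytoplasmic and nuclear core, which holds the Dishevelled, GSK3, APC and casein kinase genes, 1 rose and 1 fell, with a median of 0.040. They were Cby1, an antagonist of beta-catenin, at 0.54 (limma, adjusted p = 0.0181; lost without WT replicate 5 (0.0512)), and the beta-catenin cofactor gene Bcl9l at -0.55 (limma, adjusted p = 0.0315; lost with no filter (0.0568), without Ednrb-/- replicate 2 (0.0699), 3 (0.0648) or 5 (0.0747) or WT replicate 3 (0.0800), 4 (0.0605) or 5 (0.0829)). Frat2 and Dvl2, the next by p, did not pass at 0.37 and -0.35 (limma, adjusted p = 0.0532 and 0.0696). Frat2 passed with array weights (0.00752), under quantile normalization (0.0319), by voom on the reads worked back (0.0372), without Ednrb-/- replicate 2 (0.0420) or 4 (0.0408) or WT replicate 2 (0.0181), and Dvl2 passed with array weights (0.0424) or without Ednrb-/- replicate 4 (0.0492).

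Of 14 tested genes of WNT secretion and extracellular control 4 fell and 1 rose, with a median of -0.25. Sostdc1, an inhibitor of WNT and BMP signals, went from 9.5 ± 3.12 to 2.32 ± 1.77 FPKM (SD, n = 5 in each group). Wls, the carrier that WNT proteins need to leave the cell, went from 46.6 ± 14.0 to 23.3 ± 6.19 FPKM (limma, adjusted p = 0.0190), a call lost without WT replicate 3 (0.0509) or 4 (0.0524). Ndp, which encodes Norrin, rose from 5.05 ± 0.987 to 7.85 ± 0.864 FPKM, while its receptor gene Fzd4 fell. Cthrc1, a secreted matrix protein that favours the planar polarity branch, fell by 1.03 on the log2 scale (limma, adjusted p = 0.0328), a call lost with no filter (0.0665), without Ednrb-/- replicate 2 (0.0665), 3 (0.0787) or 5 (0.0785) or WT replicate 3 (0.0774), 4 (0.0768) or 5 (0.0845).

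Of 21 tested co-receptors and planar polarity genes 7 fell and none rose, with a median of -0.17. Prickle1, a planar polarity protein, went from 13.6 ± 2.37 to 5.05 ± 1.05 FPKM, and Vangl1, its partner at the membrane, from 2.31 ± 0.380 to 0.905 ± 0.268 FPKM. Adgra2, a receptor subunit for WNT7 ligands in blood vessels, went from 24.4 ± 12.9 to 2.75 ± 1.91 FPKM. The endothelial sums, at most 9.98 FPKM in any library, are of other genes and do not measure cell number. The part of any cell type in the fall of Adgra2 was not tested. Daam2, a formin that binds Dishevelled, went from 11.7 ± 1.41 to 6.21 ± 1.55 FPKM (SD, n = 5 each). Of 18 tested target genes outside the 56, 9 fell and 1 rose, with a median of -0.65. Cd44, a hyaluronan receptor, fell from 4.23 ± 0.875 to 0.801 ± 0.341 FPKM, the pigment cell factor Mitf by 1.90 and the dorsal factor Msx2 by 2.14 on the log2 scale. Id2, an inhibitor of bHLH factors, rose from 92.6 ± 12.9 to 138 ± 13.3 FPKM (SD, n = 5 each). These genes also answer to other signals, and Msx2 is 1 of the roof plate markers and Mitf 1 of the pigment cell markers above.

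Of the 21 fallen genes 5 (Axin2, Lef1, Tcf7, Tcf7l1 and Wnt11) overlap a model on the opposite strand. Those models had at most 0.641 FPKM in the mean of either genotype.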

How the data were processed

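The data are 10 RNA sequencing libraries, 5 WT and 5 Ednrb-/-. Per the submitters' processing notes, fastp, HISAT2 2.0.5 and featureCounts 1.5.0-p3 were used, with mm10. Read filters and strand use are unknown here. The deposited values are FPKM per gene model, per the file headers, with identifiers of the C57BL/6NJ assembly, whose coordinates are printed as given. Columns were matched to samples by title, with 0 further columns.

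FPKM times gene length gave whole reads (100% of values within 0.05 of a read). Low genes rest on few reads, and a count of 3 reads was used as the floor for counting error. Replicates entered singly.

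The test was limma 3.58.1 in R 4.3.3 (trend, no covariate) on log2(FPKM + 0.5), two-sided, for genes with at least 0.5 FPKM in at least 5 of the 10 libraries. On simulated reads for this comparison (15283 genes), 31.3%, 47.6% and 82.0% of genes changed 1.5-fold, 2-fold and 4-fold were recovered. There were 12 false calls beside 101 true ones, and 0 calls with no change put in (15369 genes).

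Alternatives were 2 other pseudocounts, 2 other filters, quantile and equal-sum scaling, no trend, array weights, voom on reads, a replicate block and each library left out. The genes, lists and tests were chosen with earlier results of these data known. Members past the threshold and Wnt1, Wnt3a, Ctnnb1 and Axin2 are given by library. Outside the 56, up to 4 genes per list with the lowest p are named, and Frzb was named after its values were seen. No list was tested as a set.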

Additional observations from a re-analysis of the deposited data

Results flagged for a closer look

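Dixon's test at its 95% critical value for 5 samples (0.710) was run on the FPKM of the 42 tested genes in each genotype, 84 groups in all, of which chance would mark about 1 in 20. It marked 3. Wnt4 in Ednrb-/- replicate 3 had 17.6 FPKM, above 12.5 to 13.9 FPKM in the other Ednrb-/- libraries. Fzd1 in WT replicate 2 had 14.1 FPKM, above 10.9 to 11.8 FPKM in the other WT libraries. Fzd9 in Ednrb-/- replicate 2 had 6.39 FPKM, above 2.38 to 3.19 FPKM in the other Ednrb-/- libraries.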

How the results depend on the processing

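Of the 21 WNT genes that fell, 12 kept their call under the alternatives in which they were tested, 9 lost it under at least 1, and none changed sign. With each library left out in turn, between 14 and 21 WNT genes passed, and between 1945 and 3276 of all genes. The lowest counts over all genes came without WT replicate 3, 4 or 5 (1945, 1960 and 1955 of all genes changed). Quantile normalization split the calls over all genes into 1603 higher and 1730 lower, against 990 and 1966. The replicate numbers did not pair the libraries: deviations of same-numbered libraries from their group means correlated between -0.163 and 0.153, and not every library correlated best with its own number. With the replicate block 12 WNT genes and 1877 of all genes passed, the 9 losses being the genes named as dependent on a library (adjusted p between 0.0552 and 0.103). Cthrc1, Cby1 and Bcl9l also missed the threshold under the block. Other WNT pathway genes passed in 19 to 30 cases with a library left out. Among genes that did not pass, 5 changed sign with a library left out, and their log2 fold changes then ran from -0.019 to 0.25 for Wnt4 (-0.0078 without WT replicate 1), from -0.41 to 0.018 for Wnt5a, from -0.092 to 0.33 for Wnt7b (-0.041 without Ednrb-/- replicate 1), from -0.49 to 0.10 for Rspo1 (0.013 and 0.010 without Ednrb-/- replicate 4 or 5) and from -0.36 to 0.21 for Sfrp2 (0.073 without Ednrb-/- replicate 5). Lgr5 changed sign under quantile normalization (0.016) and Rspo1 with array weights (0.067). The cause was not tested. Depth limits the lowest genes, such as Dkk1 and Lef1.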
